A study of Mus musculus with 24 samples.

Results

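Egr1 and 9 further immediate early genes were followed in the lungs of mice that lacked both TNF receptors and of wild-type mice, in air and during exposure to ozone (O3). The members were Egr1, Fos, Fosb, Jun, Junb, Nr4a1, Ier2, Atf3, Dusp1 and Ccn1 (Cyr61 in older annotations), and they were listed by name, with earlier results of these data known. Each was read by the probe sets that the array annotation assigned to that gene alone. All 10 genes were on the array, with 12 probe sets of the 22644 in the value table, and all 12 passed the filter on low signals, as did 20537 probe sets of 11597 genes in all. Jun and Ccn1 had a pair of probe sets each, and a gene was represented by the probe set with the highest mean log2 signal.

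The tested mice were Tnfr-/-, which carry targeted disruptions of both Tnfrsf1a (TNFR1) and Tnfrsf1b (TNFR2) on a B6.129S background, and their controls were Tnfr+/+ mice of the strain C57BL/6J, so the genotypes can also differ in 129 sequence that travelled with the disrupted genes. All mice were purchased males of 6 to 8 weeks. Each genotype had 4 groups of 3 mice, which breathed filtered air or 0.3 ppm O3 without a break over 24, 48 or 72 h. Lung homogenate of each mouse gave total RNA for 1 Affymetrix MOE430A array, 24 arrays in all, and the question was which lung responses to O3 depend on TNF receptors. The air mice of a genotype formed 1 group, kept in a chamber of their own, and served as the reference at all 3 times.

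Immediate early genes are transcribed within minutes of a stimulus without new protein synthesis, because the factors that drive them, such as SRF with its ETS partners and CREB, are already present and are switched on by MAP kinases and other kinases. Their transcripts decay fast, so that a lasting level needs a lasting or repeated stimulus. Many encode transcription factors (EGR1, the FOS and JUN proteins of AP-1, ATF3, NR4A1), and others encode feedback inhibitors such as DUSP1 or secreted proteins such as CCN1. In the lung they are known to respond to oxidants, stretch, growth factors and inflammatory cytokines.

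The signals given below are quantile normalized intensities, which are compared between groups within a probe set and never between genes. The total signal per array lay between 14877040 and 16057693. The array of Tnfr+/+ mouse 1 at 72 h of O3 stood apart, with a Gapdh 3′/5′ signal ratio of 4.45 against 0.89 to 1.74 on the other arrays and a mean correlation with the rest of 0.927 against at least 0.942. A probe set of Tnfrsf1b read 151 to 266 over the 12 Tnfr-/- arrays and 356 to 525 over the 12 Tnfr+/+ arrays. Its other probe set overlapped between the genotypes, as did the probe set of Tnfrsf1a (1399 to 2341 in Tnfr-/- and 2030 to 3623 in Tnfr+/+), and whether these probes lie outside the disrupted parts is not given in the sources used here. All 7 measured markers of alveolar type 2 cells and all 5 of club cells had signals on every array, at or above 2011 and 3339.

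At 24 h of O3, 5 of the 10 members were higher in Tnfr-/- than in Tnfr+/+ lungs (Egr1, Fos, Junb, Nr4a1 and Ccn1, by 1.14 to 2.32 on the log2 scale), where 0.584% of all probe sets were called higher. Calls were made by limma at a Benjamini-Hochberg adjusted p under 0.05 over all 20537 probe sets. Against air, 4 members rose in Tnfr-/- lungs at 24 h (Egr1, Fos, Junb and Ccn1), where 0.726% of all probe sets were called higher. The median log2 change of the 10 members was 1.00 in this comparison, against -0.02 over all genes. In Tnfr+/+ lungs at 24 h limma called 0 of the 10 against air, as it did 0.0828% of all probe sets, and 1 member (Atf3) had an unadjusted p under 0.05, as did 5.89% of all probe sets. The methods' t-test also called 0 of the 10 there after Benjamini-Hochberg adjustment. The median change of the members was 0.13, against 0.00 over all genes.

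Fos, Junb, Nr4a1 and Ccn1 are shown by the stretch of promoter before their start, since they were the members that were higher together with Egr1. Dusp1 and Jun are shown beside them as members that passed no test in the main fit. The windows are from RefSeq on GRCm38.p6 and end at the base before the annotated start. The promoter table held windows for 8 of the 10 members and none for Egr1 and Ier2, so the promoter of Egr1 itself was not searched. They are the 150 bases at chr12:85473740-85473889 (+ strand, Fos), chr8:84978749-84978898 (- strand, Junb), chr15:101266696-101266845 (+ strand, Nr4a1), chr3:145649986-145650135 (- strand, Ccn1), chr17:26508473-26508622 (- strand, Dusp1) and chr4:95052223-95052372 (- strand, Jun). Each is written 5′ to 3′ on the strand of the gene, and capitals mark TGACG on either strand, the half-site of the cAMP response element that CREB and ATF proteins bind.
Fos: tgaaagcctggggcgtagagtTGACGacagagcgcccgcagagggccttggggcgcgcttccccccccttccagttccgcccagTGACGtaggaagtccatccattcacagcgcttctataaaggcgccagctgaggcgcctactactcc
Junb: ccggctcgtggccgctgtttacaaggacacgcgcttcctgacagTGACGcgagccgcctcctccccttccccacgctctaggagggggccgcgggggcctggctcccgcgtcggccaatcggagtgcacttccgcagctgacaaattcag
Nr4a1: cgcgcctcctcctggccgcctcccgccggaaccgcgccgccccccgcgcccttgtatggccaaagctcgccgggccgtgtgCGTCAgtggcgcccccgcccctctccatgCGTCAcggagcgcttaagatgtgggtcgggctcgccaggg
Ccn1: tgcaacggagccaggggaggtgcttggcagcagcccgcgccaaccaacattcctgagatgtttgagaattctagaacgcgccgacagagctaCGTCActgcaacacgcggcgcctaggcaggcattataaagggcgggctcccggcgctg
Dusp1: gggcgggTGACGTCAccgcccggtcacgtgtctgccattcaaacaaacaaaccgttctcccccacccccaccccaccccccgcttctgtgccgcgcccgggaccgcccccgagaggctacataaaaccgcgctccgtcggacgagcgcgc
Jun: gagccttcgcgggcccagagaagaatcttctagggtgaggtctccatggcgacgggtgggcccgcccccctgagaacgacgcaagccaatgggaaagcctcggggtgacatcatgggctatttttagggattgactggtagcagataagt
Within 250 bases before the start, 7 of the 8 windows held TGACG on either strand, and 17.8% of the 32851 windows in the table did. Jun was the member without it. Nr4a1 had 4 matches, Dusp1 3 and Fos 2, and the TGACG of Fos nearest to the start begins 66 bases before it. Dusp1 alone of the 8 held the full palindrome TGACGTCA (1.55% of all windows), which contains overlapping half-sites. The EGR motif GCGNGGGCG stood in the windows of Fosb and Nr4a1 (4.7% of all windows), the TATAAA box in those of Fos and Ccn1 (12.4%), and neither the AP-1 motif TGANTCA (6.75%) nor a CArG box (1.47%), the element SRF binds, in any of the 8, all searched on both strands. The half-site was thus present in members that moved with Egr1 and in members that did not (Fosb, Dusp1). The 8 windows had from 54.8% (Ccn1) to 74.4% (Nr4a1) of G and C, against a median of 52.4% over all windows. The shares over all windows are not matched for this content. A match describes the letters of the window and no more, and sites farther than 250 bases from the start were not searched.

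Egr1 encodes a zinc finger transcription factor that is itself among the fastest induced genes. Its signal at 24 h of O3 was 5103, 5703 and 5248 in the 3 Tnfr-/- lungs and 1146, 1051 and 1009 in the 3 Tnfr+/+ lungs. In air it was 1559, 1255 and 1386 in Tnfr-/- lungs and 1233, 948 and 1176 in Tnfr+/+ lungs. The 3 Tnfr-/- lungs at 24 h lay far above all 21 other arrays, and the 3 Tnfr-/- air values lay just above the 3 Tnfr+/+ air values. Egr1 was 5.01-fold higher in Tnfr-/- than in Tnfr+/+ lungs at 24 h (log2 difference 2.32, SE 0.19, adjusted p = 1.7e-06) and 3.83-fold higher after 24 h of O3 than in air in Tnfr-/- lungs (1.94, SE 0.19, adjusted p = 2.4e-05). The corresponding O3 effect in Tnfr+/+ lungs was -0.06 (95% interval -0.45 to 0.34).

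**Figure D1:**
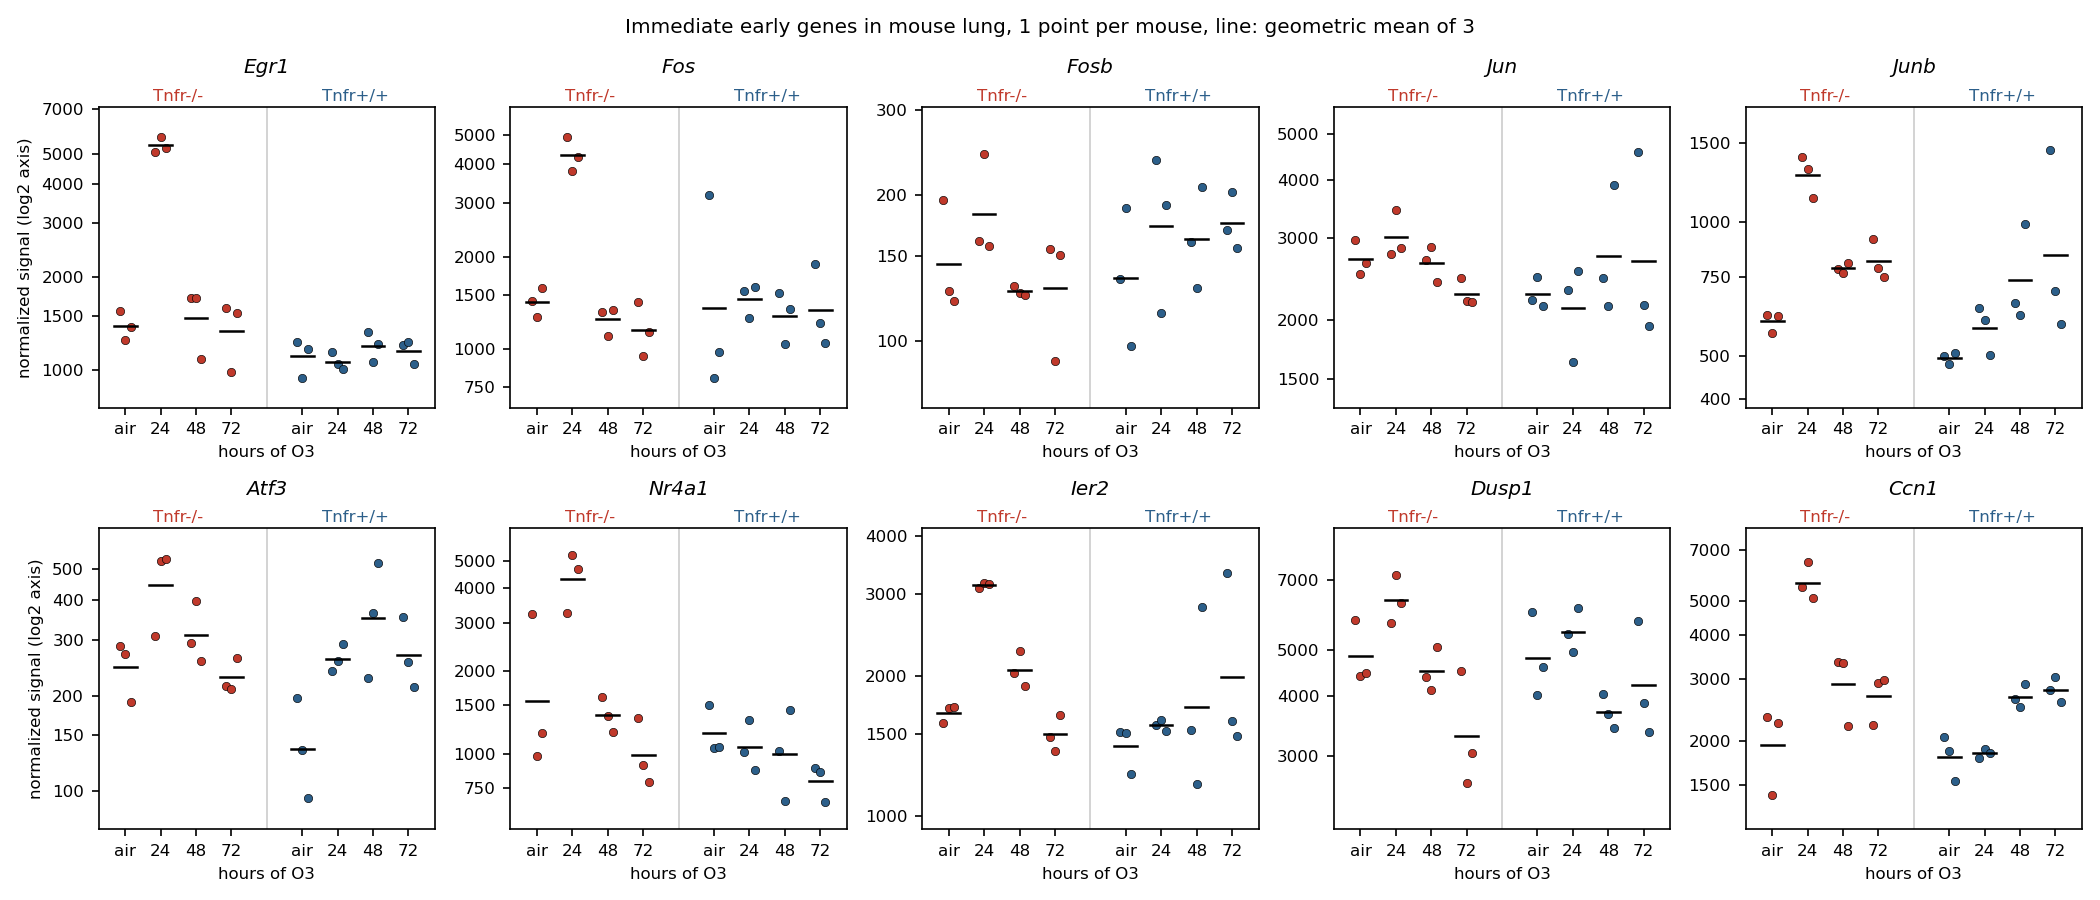
Normalized signal of the 10 members, 1 panel a gene on a log2 axis, against hours of O3, with Tnfr-/- mice left (red) and Tnfr+/+ mice right (blue). Each point is 1 mouse and each line the geometric mean of 3 mice. For Egr1 the 3 Tnfr-/- mice at 24 h sit between 5103 and 5703, above all other mice.

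By 48 h Egr1 was back near its air level in Tnfr-/- lungs, with 1718, 1711 and 1093, and it stayed there at 72 h, with 1594, 989 and 1540. In Tnfr+/+ lungs it was 1331, 1068 and 1214 at 48 h and 1204, 1237 and 1046 at 72 h. Ordered by mean, Tnfr-/- at 24 h (5351 ± 313, SD, n = 3) stood 3844 above the next group, which is 10.7 times the larger of the 2 SDs. The other 7 groups, from 1507 ± 359 in Tnfr-/- at 48 h to 1069 ± 70.4 in Tnfr+/+ at 24 h, followed each other at gaps of at most 0.51 of the larger SD, so no neighbours among them differed beyond their spread.

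Fos, the partner of JUN proteins in the AP-1 dimer, followed the same course. Its signal at 24 h was 4926, 3800 and 4215 in Tnfr-/- lungs and 1542, 1262 and 1586 in Tnfr+/+ lungs, with no overlap. In air it was 1427, 1268 and 1582 in Tnfr-/- lungs and 3170, 804 and 978 in Tnfr+/+ lungs, where mouse 1 stood above the other two. Fos was higher by 1.56 in Tnfr-/- than in Tnfr+/+ lungs at 24 h (SE 0.35, adjusted p = 0.041) and by 1.59 against air in Tnfr-/- lungs (SE 0.35, adjusted p = 0.030). Both calls were lost when any 1 of the 6 arrays compared was left out, with log2 differences that stayed between 1.46 and 1.68 and adjusted p up to 0.145 and 0.121. Over their 14 alternatives each, the adjusted p lay between 0.0165 and 0.145 for the genotypes and between 0.00914 and 0.121 for O3. Fosb, a close relative that also pairs with JUN proteins, had 161, 244 and 157 in Tnfr-/- and 237, 114 and 191 in Tnfr+/+ lungs at 24 h. Its groups overlapped, and the difference of 0.08 (95% interval -0.54 to 0.71) passed no test.

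Junb, the JUN family member that often restrains JUN, was called as well. At 24 h it read 1392, 1310 and 1127 in Tnfr-/- lungs and 641, 603 and 501 in Tnfr+/+ lungs, and in air 617, 564 and 615 in Tnfr-/- lungs and 499, 479 and 508 in Tnfr+/+ lungs. No value of Tnfr-/- at 24 h overlapped with these 3 groups. The difference was 1.14 between the genotypes at 24 h (SE 0.24, adjusted p = 0.026) and 1.09 against air in Tnfr-/- lungs (SE 0.24, adjusted p = 0.028). The call against air was lost without any 1 of the 6 arrays and the call between genotypes without any but Tnfr-/- mouse 3, at adjusted p up to 0.11 and 0.107. Over the 14 alternatives of each, the adjusted p lay between 0.000567 and 0.11 and between 0.00108 and 0.149.

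Jun, the central AP-1 subunit, passed no test. It read 2776, 3450 and 2854 in Tnfr-/- and 2326, 1627 and 2556 in Tnfr+/+ lungs at 24 h, which did not overlap, and the difference of 0.50 had an adjusted p of 0.41. Its other probe set gave a difference of -0.16 (adjusted p = 0.73), so the probe sets of Jun disagreed in sign. In Tnfr+/+ lungs Jun was widest at the later times, with 2462, 2142 and 3901 at 48 h and 4583, 2157 and 1950 at 72 h.

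Atf3, a stress-induced factor that mostly represses its targets, was the member called in Tnfr+/+ lungs. In Tnfr-/- lungs it read 287, 271 and 191 in air, then 308, 530 and 538 after 24 h, 292, 397 and 256 after 48 h, and lastly 215, 210 and 263 after 72 h. In Tnfr+/+ lungs it read 197, 134 and 94.9 in air, then 238, 257 and 290 after 24 h, 227, 363 and 522 after 48 h, and lastly 354, 255 and 212 after 72 h. At each time of O3 the Tnfr+/+ values lay above all 3 Tnfr+/+ air values. Atf3 was 1 of the 10 members called in Tnfr+/+ lungs at 48 h against air (1.37, SE 0.31, adjusted p = 0.034), where 0.901% of all probe sets were called higher. This call was lost without Tnfr+/+ air mouse 2 or 3, or without Tnfr+/+ 48 h mouse 2 or 3, with differences between 1.08 and 1.68 over the left-out arrays and adjusted p up to 0.158, and over all 14 alternatives the adjusted p ran from 0.0146 to 0.513. At 24 h Atf3 was 0.86 above air in Tnfr-/- lungs (adjusted p = 0.23) and 0.94 above air in Tnfr+/+ lungs (adjusted p = 0.54).

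Nr4a1, an orphan nuclear receptor induced by many stimuli, including antigen receptor signalling in lymphocytes, had 3239, 5279 and 4703 in Tnfr-/- lungs at 24 h and 1016, 1324 and 875 in Tnfr+/+ lungs. In air it had 3210, 979 and 1187 in Tnfr-/- and 1510, 1050 and 1062 in Tnfr+/+ lungs. Mouse 1 of the Tnfr-/- air group almost reached the lowest Tnfr-/- value at 24 h. The difference between the genotypes at 24 h was 2.03 (SE 0.36, adjusted p = 0.010). Against air in Tnfr-/- lungs Nr4a1 was 1.48 higher and missed the threshold (SE 0.36, adjusted p = 0.054). Without that air mouse the difference against air was 2.00 (adjusted p = 0.0033), and without Tnfr-/- mouse 2 at 24 h the call between the genotypes was lost (adjusted p = 0.061, within 0.0048 to 0.163 over its 14 alternatives).

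Ier2, a small nuclear protein of the immediate early class, read 3093, 3179 and 3163 in Tnfr-/- and 1571, 1613 and 1528 in Tnfr+/+ lungs at 24 h. The groups stood apart, yet Ier2 missed the threshold, with a difference of 1.00 (SE 0.27, adjusted p = 0.080), and the same held against Tnfr-/- air (1587, 1705 and 1717), with 0.91 (SE 0.27, adjusted p = 0.12). Between the genotypes Ier2 passed with array quality weights (adjusted p = 0.0079) and by the methods' t-test after Benjamini-Hochberg adjustment (adjusted p = 0.017), and against air it passed with the weights (adjusted p = 0.0076). The standard error came from all 8 groups, and Ier2 was widest in Tnfr+/+ lungs at 48 h (1531, 1173 and 2821) and 72 h (3325, 1604 and 1485).

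Ccn1 encodes a secreted matricellular protein that acts on integrins in tissue repair. At 24 h its signal was 5489, 6459 and 5112 in Tnfr-/- lungs and 1785, 1893 and 1854 in Tnfr+/+ lungs, and in air 2337, 1403 and 2247 in Tnfr-/- lungs and 2047, 1873 and 1537 in Tnfr+/+ lungs. Ccn1 was 3.07-fold higher in Tnfr-/- than in Tnfr+/+ lungs at 24 h (log2 difference 1.62, SE 0.20, adjusted p = 3.2e-04) and 2.91-fold higher than in air in Tnfr-/- lungs (1.54, SE 0.20, adjusted p = 4.1e-04). The probe set used is of the kind that may also bind related transcripts, and the other probe set of Ccn1 gave 1.61 (adjusted p = 3.9e-04) and 1.48 (adjusted p = 5.9e-04). The call against air was lost with only the arrays compared and by the methods' t-test (adjusted p up to 0.176 over 14 alternatives), and the call between the genotypes by the methods' t-test (adjusted p = 0.094).

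At the later times Ccn1 lay above its air level in most mice. In Tnfr-/- lungs it read 3370, 3329 and 2206 at 48 h and 2225, 2934 and 2980 at 72 h, which was 0.58 (adjusted p = 0.11) and 0.47 (adjusted p = 0.22) above air. In Tnfr+/+ lungs it read 2642, 2494 and 2915 at 48 h and 2799, 3039 and 2590 at 72 h, above all 3 air values. These Tnfr+/+ differences missed the threshold with the representative probe set (0.57, adjusted p = 0.21, and 0.63, adjusted p = 0.086) and passed it with the other (0.92, adjusted p = 0.026, and 0.79, adjusted p = 0.036).

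Dusp1, a phosphatase that switches off MAP kinases, passed no test in the main fit. It read 5688, 7177 and 6253 in Tnfr-/- lungs at 24 h and 5385, 4934 and 6107 in Tnfr+/+ lungs, and the difference was 0.22 (95% interval -0.23 to 0.66). Its lowest group mean was that of Tnfr-/- lungs at 72 h (4514, 2630 and 3034), at 0.32 of the larger SD under the next group, Tnfr+/+ at 48 h, with which it overlapped. It lay there 0.55 below Tnfr-/- air (adjusted p = 0.18). With array quality weights in limma this difference was -0.61 and passed (adjusted p = 0.042).

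In all, 8 of the 10 members had every Tnfr-/- value above every Tnfr+/+ value at 24 h by the representative probe sets, as did 12% of all probe sets. Fosb and Dusp1 were the exceptions, and Jun overlapped with its other probe set (-0.16). In Tnfr-/- lungs 7 of the 10 had every value at 24 h above every air value, as did 10.8% of all probe sets. Whether O3 acted differently in the genotypes at 24 h was tested as the interaction of genotype and O3. Egr1 was the 1 member called (log2 difference of differences 2.00, SE 0.27, adjusted p = 0.0055), where 0.00974% of all probe sets were called higher. Ccn1 had the next smallest adjusted p among the members (1.51, SE 0.28, adjusted p = 0.11), followed by Nr4a1 (1.65, SE 0.51, adjusted p = 0.56) and Fos (1.49, SE 0.50, adjusted p = 0.60), which did not pass.

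**Figure D2:**
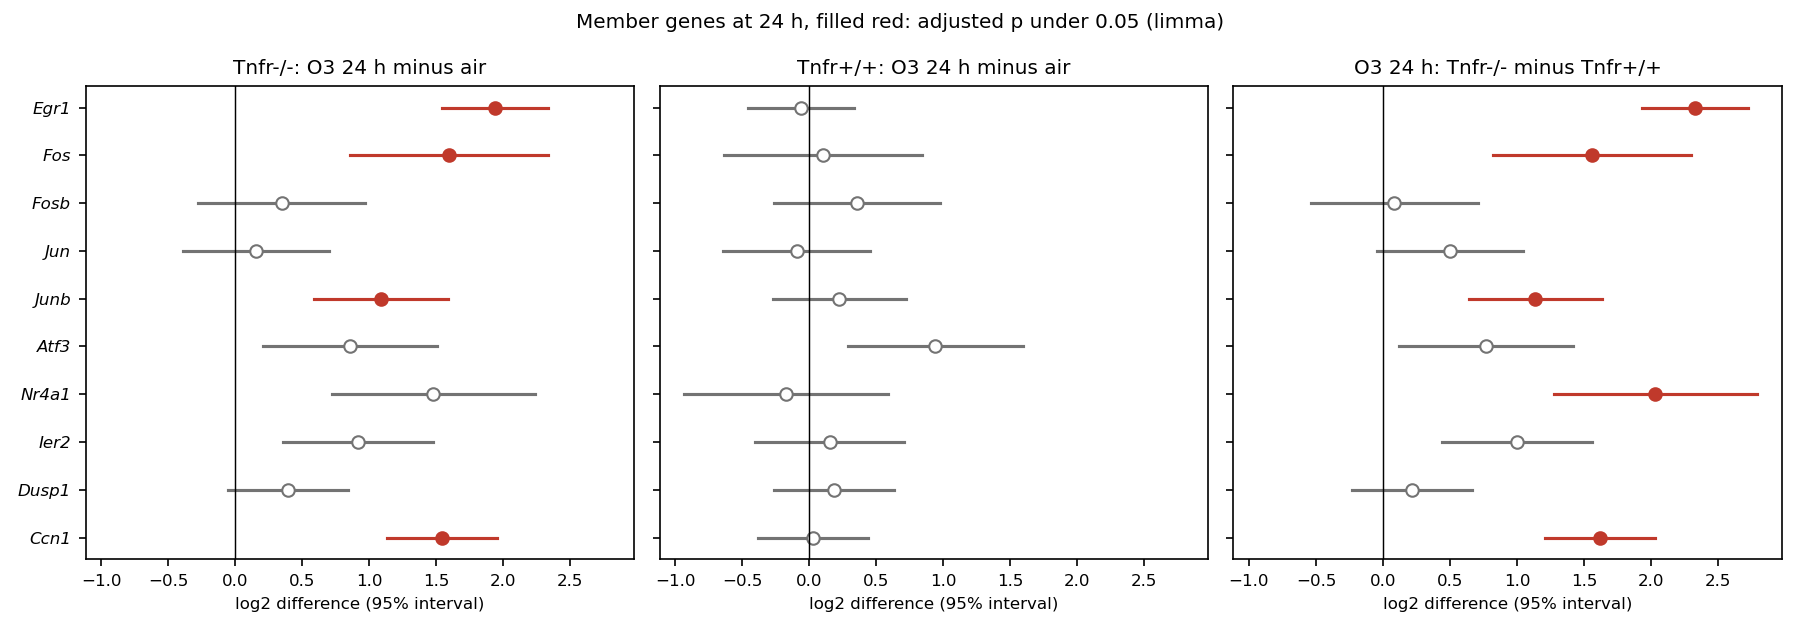
Log2 differences of the 10 members at 24 h of O3, with 95% intervals from limma, for O3 against air in Tnfr-/- lungs (left) and in Tnfr+/+ lungs (middle) and for Tnfr-/- against Tnfr+/+ lungs (right). Filled red points passed an adjusted p under 0.05, which 4 members did at left, none in the middle and 5 at right.

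The decline after 24 h was tested directly. From 24 to 48 h, 3 of the 10 members fell in Tnfr-/- lungs, where 0.0925% of all probe sets were called lower. Egr1 was lower at 48 h than at 24 h by 1.86 on the log2 scale (log2 change -1.86, SE 0.19, adjusted p = 9.4e-05), Fos had a change of -1.78 (SE 0.35, adjusted p = 0.032) and Ccn1 of -0.96 (SE 0.20, adjusted p = 0.039). The calls of Fos and Ccn1 were lost without any 1 of the 6 arrays, at adjusted p up to 0.147 and 0.19, and over their 14 alternatives the adjusted p lay between 0.0115 and 0.167 for Fos and between 0.024 and 0.334 for Ccn1. Nr4a1 changed by -1.64 and missed the threshold (adjusted p = 0.057). All 10 members had a negative change, and 8 of the 10 had every value at 48 h under every value at 24 h, as did 9.79% of all probe sets. The comparisons of 24 h with air, with Tnfr+/+ lungs and with 48 h share the 3 Tnfr-/- arrays at 24 h.

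**Figure D3:**
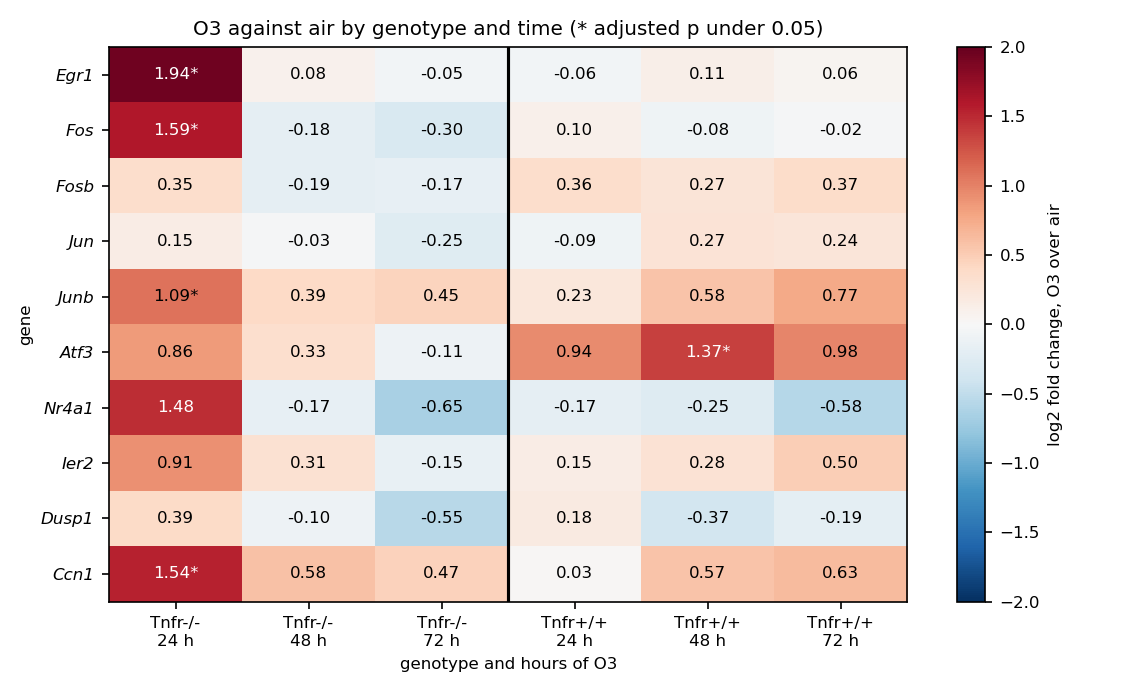
Log2 fold change of O3 over air for the 10 members (rows) at 24, 48 and 72 h in Tnfr-/- lungs (left 3 columns) and Tnfr+/+ lungs (right 3 columns), with an asterisk at an adjusted p under 0.05 in limma. The rises of Tnfr-/- lungs stand at 24 h, and Egr1 is at 0.08 and -0.05 by 48 and 72 h.

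In the remaining comparisons limma called no member, nor did the methods' t-test after Benjamini-Hochberg adjustment, which was not run for interactions. At 72 h in Tnfr+/+ lungs 0 of 10 members were called against air, where 3.1% of all probe sets were, and 3 had an unadjusted p under 0.05 (Junb, Atf3 and Ccn1, all higher), where 17.9% did. At that time 3 of the 10 had every O3 value above every air value, as did 9.53% of all probe sets, and Nr4a1 (889, 857 and 665 at 72 h) had every O3 value under every air value, as did 10.2%. Junb was 0.77 above air there (adjusted p = 0.087), with 1446, 699 and 590 at 72 h, and mouse 1 is the one whose array stood apart. Without mouse 1 the difference was 0.38 (adjusted p = 0.29), and without mouse 3 it was 1.02 (adjusted p = 0.028), within adjusted p of 0.028 to 0.58 over its 14 alternatives. In Tnfr-/- lungs 0 of 10 were called at 48 h, where 3.83% of all probe sets were, and 0 of 10 at 72 h, where 3.96% were. At an unadjusted p under 0.05 there was 1 member at 48 h (Ccn1), where 18.4% of all probe sets passed, and there were 2 at 72 h (Ccn1 and Dusp1), where 17% did. The other probe set of Jun also had an unadjusted p under 0.05 at both times, with -0.42 (adjusted p = 0.19) and -0.45 (adjusted p = 0.17).

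Between the genotypes, 0 of 10 members were called in air, where 0.0876% of all probe sets were, and 1 (Atf3, 0.85 higher in Tnfr-/- lungs, adjusted p = 0.50) had an unadjusted p under 0.05, as did 6.92% of all probe sets. With the representative probe sets all 10 had a positive difference in air, with a median of 0.25 against 0.00 over all genes. Of the 10, 4 (Egr1, Jun, Junb and Ier2) did not overlap, as was the case for 7.82% of all probe sets. Jun had a negative difference in air with its other probe set (-0.10, adjusted p = 0.98), and there the groups overlapped. At 48 h 0 of 10 were called, where 0.166% of all probe sets were, and at 72 h 0 of 10, where 0.161% were. By the representative probe sets no member had an unadjusted p under 0.05 at either time, against 10.8% and 11.1% of all probe sets. The other probe set of Jun did, and was lower in Tnfr-/- lungs at 48 h (-0.41, adjusted p = 0.39) and at 72 h (-0.44, adjusted p = 0.36). For the interaction 0 of 10 were called at 48 h (0% of all probe sets) and at 72 h (0.00487%). Atf3 had an unadjusted p under 0.05 at both times, with -1.03 and -1.08, as did 5.51% and 5.31% of all probe sets.

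Between successive times, 0 of 10 members were called in Tnfr+/+ lungs from 24 to 48 h (0.2% of all probe sets) and from 48 to 72 h (0%), and 0 of 10 in Tnfr-/- lungs from 48 to 72 h (0.00487%). At an unadjusted p under 0.05 there were 2 of 10 in Tnfr+/+ lungs from 24 to 48 h (Ccn1 higher and Dusp1 lower), against 9.24% of all probe sets. There was none in either later step, against 5.36% of all probe sets in Tnfr-/- and 8.55% in Tnfr+/+ lungs.

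Of 15 further immediate early transcription factors measured, Myc was called higher in Tnfr-/- lungs at 24 h. Of all probe sets 0.584% were called higher there between the genotypes and 0.726% against air. Myc read 388, 304 and 320 in Tnfr-/- lungs and 167, 174 and 130 in Tnfr+/+ lungs (1.10, adjusted p = 0.021), and was 1.29 above Tnfr-/- air (adjusted p = 0.0051). At 48 h Myc read 338, 360 and 343 in Tnfr-/- lungs and 282, 279 and 363 in Tnfr+/+ lungs. In Tnfr+/+ lungs it then stood 1.43 above its air level (adjusted p = 0.0020), where 0.901% of all probe sets were called higher. Egr2, a close relative of Egr1, was 0.99 higher in Tnfr-/- than in Tnfr+/+ lungs at 24 h and missed the threshold (adjusted p = 0.056), as did Btg2 with 0.80 (adjusted p = 0.070). The list had a median difference of 0.07 between the genotypes at 24 h, against -0.03 over all genes.

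Of 22 immediate early genes for signalling and secreted proteins, 4 were higher in Tnfr-/- than in Tnfr+/+ lungs at 24 h and none was lower. Of all probe sets 0.584% were called higher and 0.419% lower there. The 4 genes were Plk3 (2.79, adjusted p = 0.018) and Plk2 (0.92, adjusted p = 0.026), which are stress-responsive kinases, Ier3 (0.95, adjusted p = 0.020), a survival factor, and Zfp36 (0.63, adjusted p = 0.047), which speeds the decay of AU-rich mRNAs. Zfp36 read 3249, 3292 and 3290 in Tnfr-/- and 1807, 2045 and 2551 in Tnfr+/+ lungs. Against air 5 of the 22 rose in Tnfr-/- lungs at 24 h, where 0.726% of all probe sets were called higher. They were Socs3 (2.15, adjusted p = 4.2e-04), Thbs1 (1.94, adjusted p = 0.0028), Plk3 (2.83, adjusted p = 0.0098), Zfp36 (0.78, adjusted p = 0.010) and Gadd45g (1.30, adjusted p = 0.048). Of these, Socs3 and Thbs1 differed between the genotypes at 24 h by 0.58 each, with adjusted p of 0.36 and 0.41. The median over the 22 was 0.32 between the genotypes and 0.43 against air, beside -0.03 and -0.02 over all genes.

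None of 16 kinases and factors that act upstream of immediate early genes, and none of 8 partners or corepressors of EGR1 and AP-1, was called in Tnfr-/- lungs at 24 h, against air or against Tnfr+/+ lungs. At an unadjusted p under 0.05, 1 of the 16 was higher in each of these comparisons, where 6.3% of all probe sets were higher against air and 7.07% between the genotypes. Of the 8, 1 was lower in each, where 6.21% and 6.98% of all probe sets were. These are transcript levels, and the activity of kinases was not measured.

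Other gene lists also held calls at 24 h. Of 7 measured B cell markers, 4 were higher in Tnfr-/- than in Tnfr+/+ lungs at 24 h (Cd79a, Cd22, Cd79b and Ms4a1, by 0.99 to 1.55), where 0.584% of all probe sets were called higher. The median over the list was 1.30, against -0.03 over all genes. The mean log2 signal of the 7 was 8.77 to 9.09 in Tnfr-/- and 7.92 to 8.04 in Tnfr+/+ lungs at 24 h, and 7.96 to 8.64 in Tnfr-/- and 8.18 to 8.47 in Tnfr+/+ lungs in air. From 24 to 48 h 4 of the 7 fell in Tnfr-/- lungs (list median -1.11), where 0.0925% of all probe sets were called lower. At 48 h the mean log2 signal of the 7 was 7.68 to 7.98 in Tnfr-/- lungs. None of the 7 was at the floor of 1 on any array. Against Tnfr-/- air at 24 h none of the 7 passed the adjusted threshold and 4 were higher at an unadjusted p under 0.05, as were 6.3% of all probe sets. The part of B cells in the signals of the members was not tested, and in whole lung more cells of a type and more RNA per cell cannot be told apart.

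Of 14 glucocorticoid-induced genes 3 were lower in Tnfr-/- than in Tnfr+/+ lungs at 24 h, where 0.419% of all probe sets were called lower. They were Zbtb16 (-3.87, adjusted p = 0.0031), Pdk4 (-2.40, adjusted p = 0.0046) and Klf9 (-1.05, adjusted p = 0.019), with a list median of -0.80. The mean log2 signal of the 14 was 9.95 to 10.26 in Tnfr-/- lungs at 24 h, which overlapped with 10.09 to 10.63 in Tnfr-/- air. It was 10.86 to 11.27 in Tnfr+/+ lungs at 24 h, above 10.32 to 10.55 in Tnfr+/+ air, so the list stood apart from air in the Tnfr+/+ lungs. Of 10 heat shock proteins 4 were lower in Tnfr-/- than in Tnfr+/+ lungs at 24 h, where 0.419% of all probe sets were called lower. They were Hsph1, Dnaja1, Hsp90aa1 and Hspa8 (by 0.80 to 2.68, list median -1.04). In Tnfr-/- lungs Hsph1 was also below air at 24 h (-1.55, adjusted p = 0.018), where 0.375% of all probe sets were called lower. From 24 to 48 h, 2 of the 10, Hsph1 and Dnaja1, rose in Tnfr-/- lungs, where 0.287% of all probe sets were called higher. Of 14 circadian clock genes Dbp (1.60, adjusted p = 0.0023) and Nr1d1 (1.11, adjusted p = 0.025) were higher in Tnfr-/- than in Tnfr+/+ lungs at 24 h, as were 0.584% of all probe sets. Tef (-1.06, adjusted p = 0.0086) and Per2 (-1.33, adjusted p = 0.016) were lower than in Tnfr-/- air, as were 0.375% of all probe sets. The mean log2 signal of the clock list overlapped between the genotypes at 24 h, with 8.40 to 8.73 in Tnfr-/- and 8.27 to 8.62 in Tnfr+/+ lungs. In air it did not overlap, with 8.89 to 9.04 in Tnfr-/- and 8.54 to 8.79 in Tnfr+/+ lungs. Every Tnfr-/- lung at 24 h was thus below every lung of Tnfr-/- air for this list. The hour of death of each mouse is not given in the sources used here, and the part of any of these groups in the signals of the members was not tested.

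**Figure D4:**
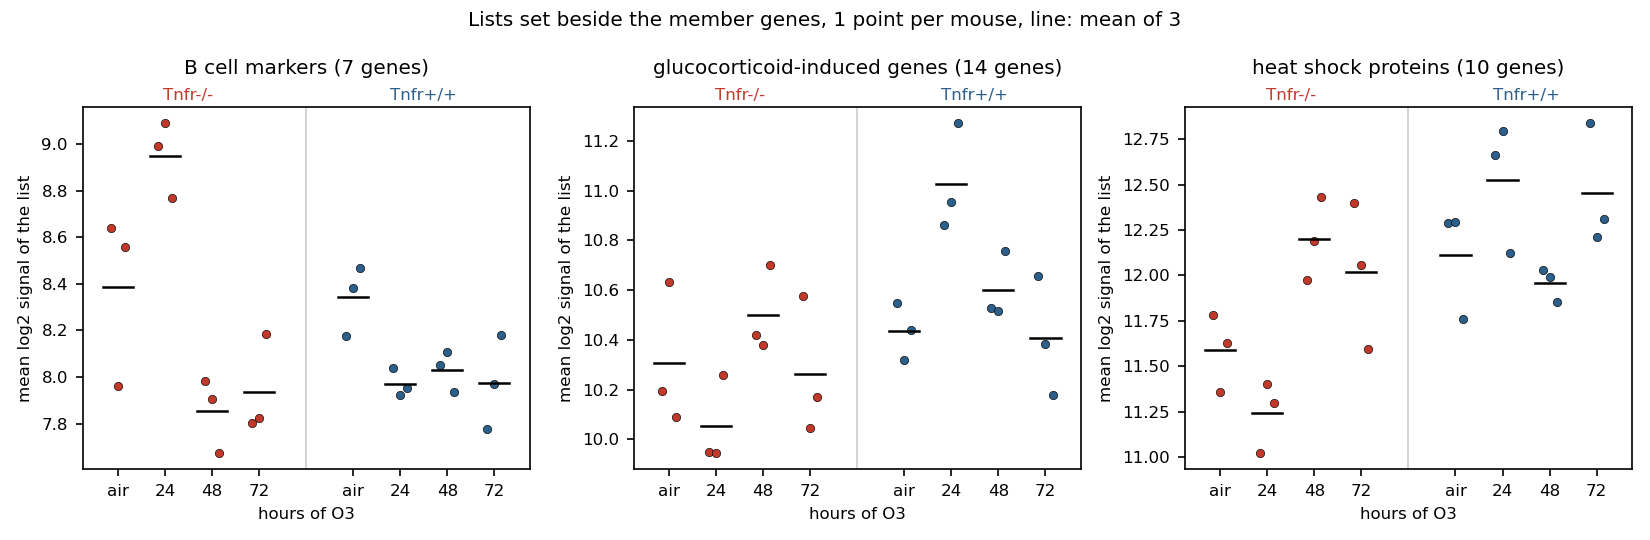
Mean log2 signal of the measured genes of 3 lists against hours of O3, 1 point a mouse and a line at the mean of 3, Tnfr-/- left (red) and Tnfr+/+ right (blue). At 24 h the B cell markers lie between 8.77 and 9.09 in Tnfr-/- and between 7.92 and 8.04 in Tnfr+/+ lungs, while both other lists lie lower in Tnfr-/- lungs.

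Among the other 14 marker lists (alveolar type 1 and type 2 cells, club cells, ciliated cells, endothelial cells, smooth muscle cells, fibroblasts, alveolar macrophages, neutrophils, T cells, red blood cells, cardiac muscle, liver and platelets), no gene was called between the genotypes at 24 h. Rtkn2, of alveolar type 1 cells, was the 1 gene called against air in Tnfr-/- lungs (-0.96, adjusted p = 0.026), where 0.375% of all probe sets were called lower. The median difference of the neutrophil markers between the genotypes at 24 h was 0.45, that of the T cell markers 0.21 and that of the cardiac muscle markers -0.67. The mean log2 signal of 4 of the 14 lists (alveolar type 1 cells, ciliated cells, fibroblasts and cardiac muscle) was lower in every Tnfr-/- than in every Tnfr+/+ lung at 24 h, and for 2 of them it was also lower than in every lung of Tnfr-/- air. The alveolar type 1 list had 12.21 to 12.36 in Tnfr-/- lungs at 24 h, against 12.53 to 12.58 in Tnfr+/+ lungs at 24 h and 12.51 to 12.57 in Tnfr-/- air. The ciliated list had 9.26 to 9.34 in Tnfr-/- lungs at 24 h, against 9.42 to 9.95 in Tnfr+/+ lungs at 24 h and 9.58 to 9.68 in Tnfr-/- air. The cardiac muscle list had 9.04 to 9.80 in Tnfr-/- and 9.88 to 10.37 in Tnfr+/+ lungs at 24 h, and the neutrophil list, which overlapped, had 8.48 to 8.94 in Tnfr-/- and 7.80 to 8.49 in Tnfr+/+ lungs. Against Tnfr-/- air, the neutrophil, T cell (6.71 to 7.14) and alveolar macrophage (9.09 to 9.35) lists were higher in every Tnfr-/- lung at 24 h. In Tnfr-/- air they had 8.25 to 8.39, 5.90 to 6.65 and 8.67 to 9.08. These lists overlapped between the genotypes at 24 h. The part of these cells in the signals of the members was not tested. The Gapdh 3′/5′ ratio was 1.12, 1.03 and 1.22 on the Tnfr-/- arrays at 24 h and 1.53, 1.74 and 1.54 on the Tnfr+/+ arrays at 24 h, so that this measure of RNA integrity also differed between these groups without overlap. It was 1.44, 1.28 and 1.35 in Tnfr-/- air. Its part in the differences was not tested.

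Likeness to Egr1 was measured as Pearson's r of log2 signals over the 24 arrays, among the 6595 genes whose mean signal was no lower than the median probe set. The 8 genes most like Egr1 were Nr4a1 (0.86), Ccn1 (0.83), Fos (0.82), Syk (0.81), Zfp36 (0.80), Sema4d (0.79), Hnrnpdl (0.79) and Dok3 (0.76), so 3 of the 8 were members. The points share the 3 Tnfr-/- arrays at 24 h, and over the other 21 arrays the same 8 genes had r between 0.14 and 0.51. With deviations from the group means, the 8 highest were Slc39a6 (0.73), C230091D08Rik (0.69), Esco1 (0.67), Timm17b (0.67), Slc30a4 (0.65), Isoc1 (0.64), Skil (0.63) and Casd1 (0.63), none of which is among the first 8. The first 8 were picked by r over arrays that include Tnfr-/- at 24 h, so their differences at 24 h are no separate support. Sema4d, a semaphorin, and Dok3, an adaptor of immune receptors, were higher in Tnfr-/- than in Tnfr+/+ lungs then (0.83, adjusted p = 0.020, and 0.81, adjusted p = 0.018). Of all probe sets 0.584% were called higher there. Syk (0.74, adjusted p = 0.069) and Hnrnpdl (0.39, adjusted p = 0.11) missed the threshold. Against Tnfr-/- air, Sema4d and Dok3 missed it as well (adjusted p = 0.059 and 0.12).

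Within groups most pairs of members deviated in the same direction. Of 45 pairs of members, 44 had a positive r of their deviations from group means over the 24 arrays (median 0.35). None passed a two-sided permutation test within groups (100000 resamples) after Benjamini-Hochberg adjustment over the 45 pairs, by Pearson's r or by Spearman's rho, which does not show that they varied apart. Single mice were the highest of their group for most members, namely mouse 1 of Tnfr-/- air (8 of 10) and, with 7 of 10 each, mouse 2 of Tnfr-/- at 24 h, mouse 1 of Tnfr-/- at 72 h, mouse 1 of Tnfr+/+ air, mouse 3 of Tnfr+/+ at 48 h and mouse 1 of Tnfr+/+ at 72 h. The 45 pairs share the same 10 genes, and neither the share of positive r nor the highest mouse was computed for other genes. The highest r were Jun with Ier2 (r = 0.83, permutation p = 0.018, adjusted p = 0.20, rho = 0.56, permutation p = 0.047, adjusted p = 0.21), Junb with Ier2 (r = 0.83, permutation p = 0.056, adjusted p = 0.23, rho = 0.48, permutation p = 0.083, adjusted p = 0.23) and Jun with Junb (r = 0.79, permutation p = 0.051, adjusted p = 0.23, rho = 0.51, permutation p = 0.073, adjusted p = 0.23). Without the 2 arrays farthest from the median of the gene named first, these r were 0.62, 0.70 and 0.52. For the pairs with Jun those arrays were Tnfr+/+ mouse 1 at 72 h, the array that stood apart, and Tnfr+/+ mouse 3 at 48 h. Egr1 had its highest r with Nr4a1 (0.48, permutation p = 0.015, adjusted p = 0.20, rho = 0.55, permutation p = 0.013, adjusted p = 0.14, and r = 0.56 without the 2 farthest arrays).

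**Figure D5:**
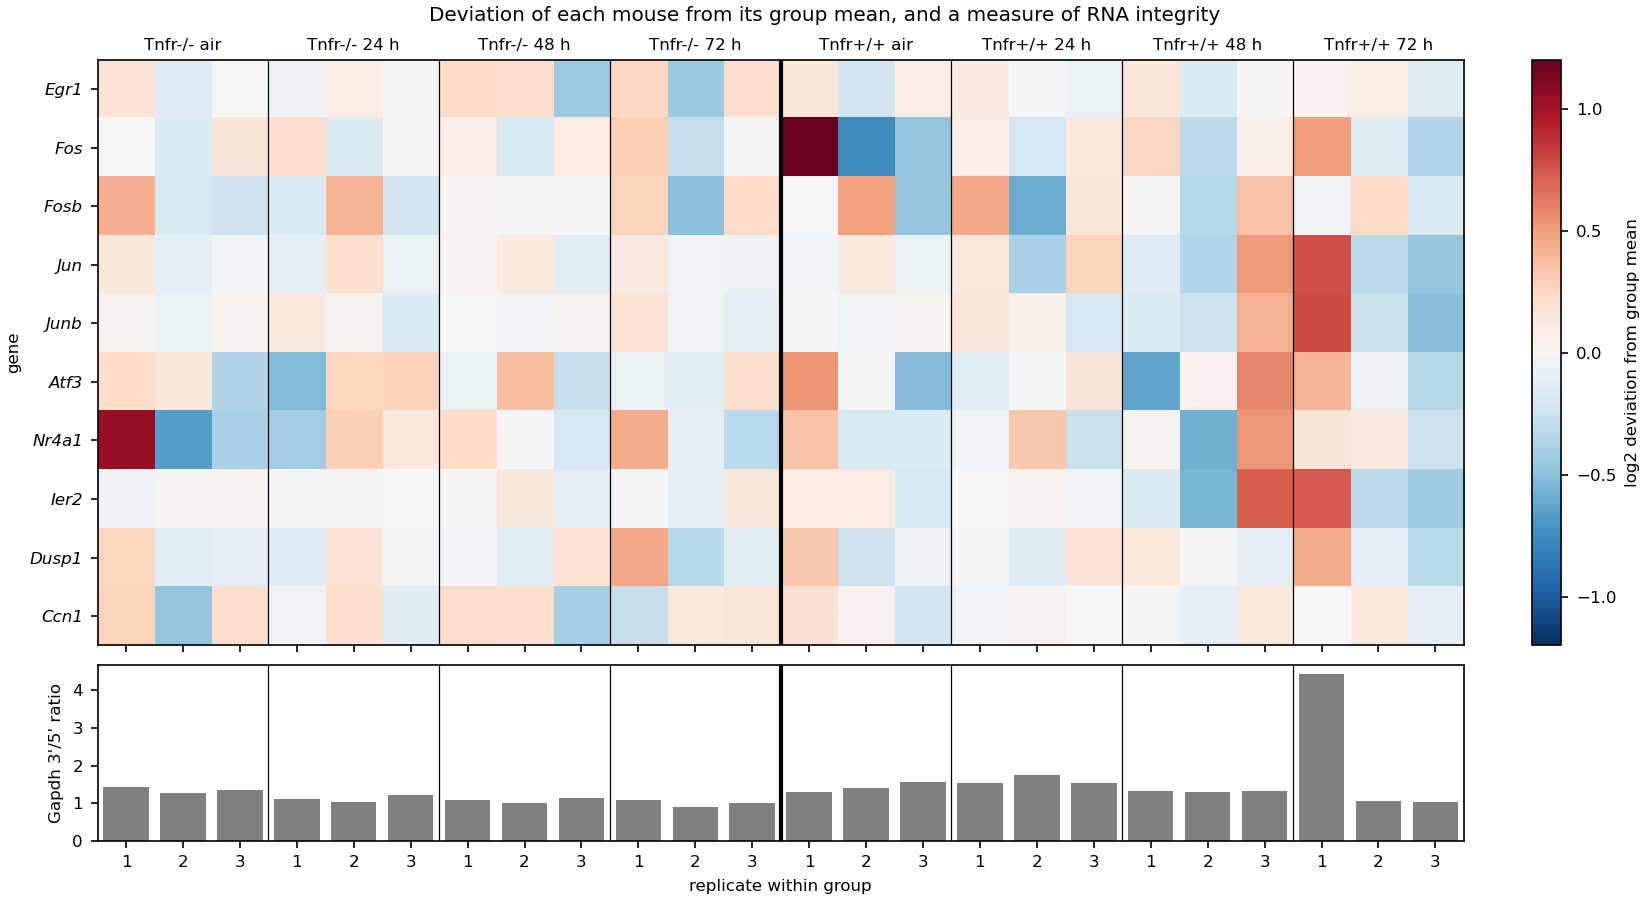
Upper panel: deviation of each mouse (column) from its group mean in log2 units for the 10 members (rows), red above and blue below. Lower panel: Gapdh 3′/5′ signal ratio of each array. Tnfr+/+ mouse 1 at 72 h, with a ratio of 4.45, is high for Jun, Junb and Ier2, and so is Tnfr+/+ mouse 3 at 48 h, with a ratio of 1.33.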

How the data were processed

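The authors deposited 1 MAS5 intensity per probe set and array on a linear scale, made in Affymetrix Expression Console per the submitters' processing notes, for 24 arrays of 8 groups of 3 mice. The study's later filter and quantile normalization are not in these values. The 22644 intensities were quantile normalized, floored at 1 and log2 transformed. A probe set was kept if it reached the 20th percentile on at least 1 array (20537 did), without 64 control probe sets. In the array annotation 20338 probe sets had 1 gene, 691 several and 1551 were not listed. A mean per group was fitted with limma 3.58.1 in R 4.3.3 over all 24 arrays (16 residual and 2.38 prior degrees of freedom), with 17 comparisons and Benjamini-Hochberg adjustment over all probe sets kept. The script was tested on simulated data. Precision is limited by the 3 arrays per group, each from a separate mouse. All 10 members are named, and of the 7 gene lists and 15 marker lists up to 6 genes per list and comparison, by adjusted p, with the 8 genes most like Egr1 by r. Alternatives were other normalizations, filters, fits and left-out arrays. The members and lists were chosen with earlier results of these data known.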

Additional observations from a re-analysis of the deposited data

Results flagged for a closer look

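The effect of 24 h of O3 on Egr1 differed between the genotypes by a test of the difference itself. It was 1.94 in Tnfr-/- lungs and -0.06 in Tnfr+/+ lungs on the log2 scale, a difference of 2.00 (SE 0.27, limma adjusted p = 0.0055), and it kept its call under all 19 alternatives run, with adjusted p between 0.0034 and 0.033. The cause was not tested. Outlying mice were not tested for, because each group held 3.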

How the results depend on the processing

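Of 201 values of single called members under an alternative, 138 kept their call, 63 lost it and 0 changed sign. Egr1 kept its call in 14 of 14 alternatives between the genotypes at 24 h, in 19 of 19 for the interaction and in 13 of 14 for O3 against air in Tnfr-/- lungs, where the ordinary t-test gave an adjusted p of 0.076. For Tnfr-/- at 48 h against 24 h it kept its call in 12 of 14, with an adjusted p up to 0.227. With only the arrays of the groups compared, 3 members were called between the genotypes at 24 h (5 in all arrays), 2 for Tnfr-/- at 24 h against air (4), 0 for Tnfr-/- at 48 h against 24 h (3) and 0 for Tnfr+/+ at 48 h against air (1). Over all probe sets the calls fell too, to 28 from 206, 29 from 226, 3 from 78 and 24 from 241. The ordinary t-test called 2, 0, 0 and 0 members in these comparisons, the 2 being Egr1 and Ier2, of which Ier2 is not among the 5. Of all probe sets it called 8 between the genotypes at 24 h and 0 in the last 2 of these comparisons. With array quality weights there were 5 for Tnfr-/- at 48 h against 24 h, 0 for Tnfr+/+ at 48 h, and 1 each for Tnfr-/- at 48 h (Ccn1) and at 72 h (Dusp1) against air. Over all probe sets the weights raised the calls in these comparisons, to 212 from 78, 449 from 241, 2448 from 787 and 1697 from 814. With any probe set of a member counted, there were 2 for Tnfr+/+ at 48 h and 1 at 72 h against air. Leaving out 1 array at a time gave 2 to 4 between the genotypes at 24 h, 2 to 3 for Tnfr-/- at 24 h against air, 1 to 1 for Tnfr-/- at 48 h against 24 h, 1 to 1 for the interaction at 24 h, 0 to 1 each for Tnfr+/+ at 48 h and 72 h and for Tnfr-/- at 48 h against air, and 0 to 0 in the rest. Fewer arrays leave fewer degrees of freedom, and otherwise the cause was not tested. The call of Junb in Tnfr+/+ lungs at 72 h appeared without mouse 3 of that group (1.02, adjusted p = 0.028), while without mouse 1 the difference of 0.77 was 0.38 (adjusted p = 0.29), and that of Ccn1 in Tnfr-/- lungs at 48 h without mouse 3 (0.78, adjusted p = 0.042).

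Replicate numbers are shared between groups in the labels. In 0 of 14 comparisons did every same-numbered pair correlate above 0.1 in its deviations (-0.18 to 0.11), so the numbers were not taken as pairs. With the replicate block the count of members was 0 for Tnfr+/+ at 48 h against air, 2 for Tnfr-/- at 48 h against 24 h, 4 for Tnfr-/- at 24 h against air and 5 between the genotypes at 24 h. Over all probe sets it was 228, 51, 202 and 192. Groups of 3 mice limit the size of change that is detectable.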
